A study of Mus musculus with 2 samples.

Results

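The cells described here carried *Lgr5* transcripts but little *Olfm4*. *Lgr5* encodes a receptor that amplifies Wnt signalling and marks the stem cells at the base of the intestinal crypt, and *Olfm4* encodes a secreted glycoprotein of the same cells. A cell was a member if it held at least 5000 unique molecular identifiers (UMIs), at least 1 *Lgr5* UMI and, per 10000 of its UMIs, under 3 of *Olfm4*, under 3 of *Cdkn1a*, under 8 of a mitosis sum (*Mki67*, *Top2a*, *Cenpf*, *Ccnb1* and *Cdc20*), under 8 of a replication sum (*Mcm2* to *Mcm6*, *Ung* and *Dtl*), under 50 of *Tff3*, under 5 of *Apoa1* and under 10 of an enteroendocrine sum (*Chga*, *Chgb*, *Cpe* and *Neurod1*). Of 4374 cells, 444 met this rule, 382 in the wt library and 62 in the ko library. The members were chosen by the levels of these genes, which are given as a description. With them, the cells were *Lgr5*-positive, were low in the transcripts of dividing, goblet, enterocyte and enteroendocrine cells, and were set apart from the *Olfm4*-rich stem cells. Whether they are progenitors was not measured.

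Intestinal stem cells divide at the crypt base, held there by Wnt and Notch signals, and their daughters lose *Lgr5* as they move up and choose an absorptive or a secretory fate. Cells that still hold *Lgr5* transcripts but have lost part of the stem cell programme may lie at the start of this path. Where the members lie on it was not measured. Stressed or starved cells of many tissues switch on the integrated stress response, in which the transcription factors *Atf4* and *Ddit3* raise genes of amino acid supply, and DNA damage or other insults switch on targets of p53 such as *Cdkn1a*, an inhibitor of cell division.

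The single-cell libraries came from enteroids, small cultures of gut epithelium that were grown from ileal crypts of mice aged 4 months, of the mixed strain C57Bl6/129sv. The ko enteroids carried floxed *Taf4* alleles and a VilCreERT2 transgene, whose recombinase is expressed from the villin promoter in gut epithelium, and they received 1 µM 4-hydroxytamoxifen (4-OHT) for 3 days, from day 5 of culture until capture at day 8. The wt library is labelled as wild type and ethanol-treated, whereas the study describes its control enteroids as floxed for *Taf4* and given 4-OHT. There was 1 library for each group, so nothing here was tested between groups, all intervals are 95% intervals for counting error only, and differences between the animals, cultures and captures cannot be told apart from the genotype.

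*Taf4*, the subunit of the general transcription factor TFIID that was deleted (chromosome 2, 179912146 to 179976646, GRCm38), was not lower in members of the ko library. It had 44 UMIs in wt and 23 in ko members, or 0.0594 (0.0432 to 0.0797) and 0.108 (0.0685 to 0.162) per 10000 UMIs, and single members ranged from 0 through a median of 0 to 1.97 in wt and from 0 through a median of 0 to 1.77 in ko. The log2 ratio of ko over wt was 0.86 (0.07 to 1.62). Reads from the 3′ end do not tell a recombined from an intact allele, so the groups are called by their labels. The wt library held 39947009 UMIs in 2563 cells and the ko library 24990128 in 1811 cells, of which 1988 and 758 reached 5000 UMIs. Members had a median of 18828.5 UMIs and 3598.5 genes in wt, and of 35185.5 UMIs and 5106 genes in ko. No wt cell reached 5000 genes, whereas 37 of the 62 ko members did. The highest wt cell had 4999 genes and the highest ko cell 5997. Whether wt cells had been cut at 5000 genes is not stated. The gap in genes and depth between the libraries cannot be told apart from such a cut. The mitochondrial share had a median of 7.58% in wt and 9.05% in ko members. The libraries shared 2 cell barcodes, none of them of a member.

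Members made up 19.2% (17.5 to 21.0) of the wt and 8.18% (6.33 to 10.4) of the ko cells with at least 5000 UMIs, a difference of -11.0 points (-13.6 to -8.26). This difference rested on a single gate. The limit on *Cdkn1a* alone kept out 59 cells in wt and 126 in ko, and without it the share was 22.2% in wt and 24.8% in ko, a difference of 2.62 points. The limit on *Olfm4* alone kept out 456 wt and 51 ko cells, and the limit on the mitosis sum 114 and 6. When every cell was first thinned to 5000 UMIs, the rule found 224 wt and 52 ko cells and a difference of -4.41 points. Just inside the *Olfm4* limit the highest member held 2.95 per 10000 in wt and 2.74 in ko, and just outside it the lowest cell held 3.02 and 3.18. At the *Cdkn1a* limit these values were 2.98 and 3.06 in wt, and 2.93 and 3.00 in ko. A single *Lgr5* UMI was all that 72 wt and 10 ko members had.

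**Figure D1:**
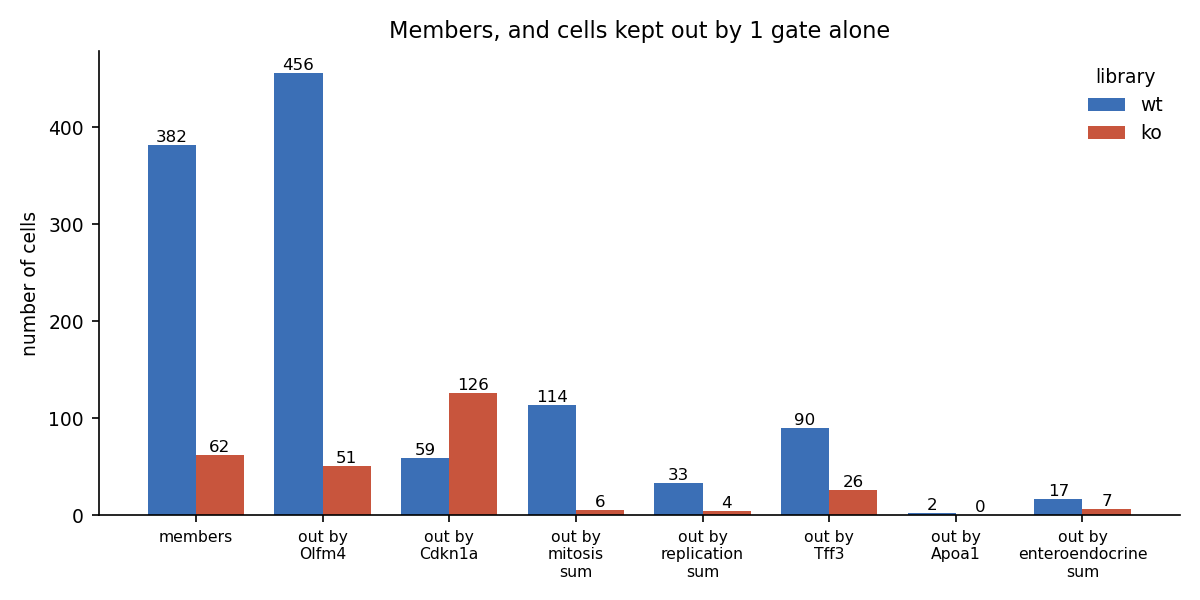
Number of cells in each library that met the whole rule (members), and of Lgr5-positive cells with at least 5000 UMIs that failed exactly 1 limit, named under the bars. The 62 ko members were outnumbered by the 126 ko cells that the Cdkn1a limit alone kept out, whereas in wt the Olfm4 limit kept out most, 456 cells.

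The cells had been described by *Lgr5*, *Nupr1*, *Cldn8* and *Slc12a2*. *Lgr5* (chromosome 10, 115450314 to 115587780) ranged from 0.314 through a median of 1.69 to 7.41 per 10000 in wt members and from 0.199 through a median of 1.56 to 5.75 in ko members. The libraries overlapped over nearly this whole range, and the summed level was 1.87 (1.77 to 1.97) in wt and 1.73 (1.56 to 1.92) in ko. *Nupr1* (chromosome 7, 126623246 to 126625470), which encodes a small stress-induced chromatin protein, ranged from 0 through a median of 7.99 to 129.5 in wt and from 0 through a median of 2.39 to 37.4 in ko. The ko values lay within the lower part of the wt range. Its summed level was 15.4 (15.2 to 15.7) in wt and 4.03 (3.77 to 4.31) in ko, a log2 ratio of -1.94 (-2.04 to -1.84). *Slc12a2* (chromosome 18, 57878512 to 57946821), the sodium, potassium and chloride importer of secreting epithelium, ranged from 0 through a median of 5.09 to 28.0 in wt and from 0 through a median of 4.27 to 15.8 in ko, with a log2 ratio of -0.14 (-0.24 to -0.04). *Cldn8* (chromosome 16, 88560826 to 88563183), a tight junction protein, was detected in 37.4% of wt and 40.3% of ko members, with a highest cell at 4.89 and 2.07 per 10000. At 5000 UMIs per cell these shares were 16.2% and 14.5%, and the log2 ratio of ko over wt was -0.45 (-0.90 to -0.02).

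RNA set free in the suspension puts UMIs into cells that do not express a gene, so these shares were compared with *Apoa1*-high cells (60 wt and 65 ko cells with at least 20 *Apoa1* UMIs per 10000), which are enterocytes by that gene. Their median depth was 22656 UMIs in wt and 41347 in ko. Among them 3.33% of wt and 4.62% of ko cells held a *Cldn8* UMI, and 3.33% and 1.54% an *Lgr5* UMI. *Nupr1* was found in 66.7% and 23.1% of them, against 97.1% and 88.7% of members. At 5000 UMIs per cell the *Nupr1* shares of members were 85.9% in wt and 54.8% in ko. *Cldn8* and *Nupr1* were each found in a larger share of members than of the *Apoa1*-high cells of the same library, whereas every member holds *Lgr5* by the rule.

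**Figure D2:**
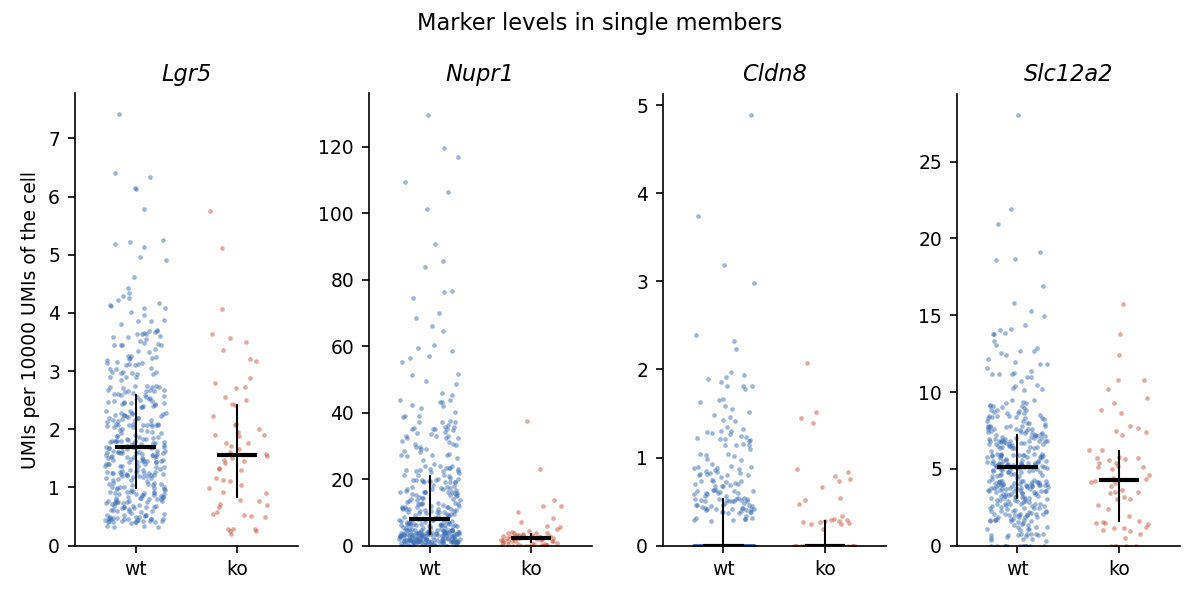
UMIs of each gene per 10000 UMIs of the cell, 1 point for each of the 382 wt and 62 ko members, with a separate scale for each gene. The horizontal bar is the median and the vertical bar spans the quartiles. Nupr1 reaches 129.5 in wt and 37.4 in ko, while the medians of Lgr5 lie at 1.69 and 1.56.

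Of these 4 genes, *Cldn8* had the highest ratio of members over the other cells of at least 5000 UMIs in wt, and it kept a close value in ko, with log2 ratios of 1.13 in wt and 0.94 in ko. *Slc12a2* gave 0.36 and 0.69, and its level was higher still in the *Olfm4*-rich cells described next, 5.91 in wt and 7.03 in ko. *Nupr1* gave 1.03 and 0.36, and the ko value turned to -0.13 under the rule on thinned cells and to -0.56 among cells with under 5000 genes. Its level in wt members was no higher than in 105 wt cells that passed every other gate but held no *Lgr5* UMI (17.6) or in the 59 kept out by *Cdkn1a* (17.5). *Nupr1*, *Cldn8* and *Slc12a2* were also set against the *Olfm4*-rich cells, without the 3 highest cells of each population. There *Nupr1* alone was past 2-fold higher in wt members, and none of the 3 was in ko, where their median log2 ratio was 0.0002. Since the gates took cells of other types out of the members, the contrast with all other cells is the rule's own. Past 2-fold in both libraries, 1 of 10435 genes counted was higher in members (0.00958%) and 375 were lower (3.59%). The gene was *Arhgap29*, for a protein that holds the GTPase RhoA inactive, with log2 ratios of 1.59 and 1.14 on 92 and 20 UMIs. Next in rank were *Sox21*, for a transcription factor (1.04 and 0.95), and *Cldn8*. The lowest were *Pyy*, *Tac1* and *Cck*, hormone genes of enteroendocrine cells, and *Cyp2c29* and *Cyp3a11*, detoxifying enzymes of enterocytes.

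A first neighbouring population was made of the cells that met every gate but held at least 3 *Olfm4* UMIs per 10000, 456 in wt and 51 in ko. By list medians, members of both libraries were higher than these in genes that low oxygen induces, in glycolysis and in genes of absorptive, goblet and regenerating epithelium. Without the 3 cells of each population that held most UMIs of a gene, the goblet list stood at 0.54 in wt, with 5 of 5 genes above 0. In ko it stood at 0.39, with 2 of 4. Genes of the secretory choice then stood at 0.57 in wt, with 7 of 8 above 0, and at -0.34 in ko, with 0 of 4. Of 9533 genes counted in wt, 165 were past 2-fold higher (1.73%) and 61 lower (0.64%). In ko, 141 of 6169 were higher (2.29%) and 96 lower (1.56%). The same direction past 2-fold in both libraries was seen for 45 genes higher (0.731%) and 7 lower (0.114%) of 6157, and for none in opposite directions. *Lgr5* itself was lower in members, with log2 ratios of -0.33 (-0.43 to -0.23) in wt and -0.40 (-0.62 to -0.19) in ko.

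All 15 hypoxia targets lay above 0 in wt, with a median log2 ratio of 0.76, and 11 of 13 did in ko, with a median of 0.88. The median over all genes counted was -0.04 in wt and -0.13 in ko. Past 2-fold were 4 in wt and 5 in ko. *Egln3*, an oxygen sensor that marks the hypoxia factor for breakdown, ranged from 0 through a median of 1.36 to 8.44 per 10000 in wt members and from 0 through a median of 1.68 to 10.6 in ko members. Its summed level was 1.62 in wt members against 0.620 in the *Olfm4*-rich cells, and 2.02 against 0.489 in ko. *Ndrg1*, a stress-responsive gene of differentiating epithelium, was at 5.39 against 2.13 in wt, a log2 ratio of 1.34 (1.26 to 1.42), and at 2.78 against 0.805 in ko, 1.79 (1.50 to 2.09). *Ero1l*, an oxidase that forms disulfide bonds in the endoplasmic reticulum, gave 1.32 (1.23 to 1.40) in wt and 1.30 (1.08 to 1.52) in ko, although its 3 highest ko members held 35.8% of its ko UMIs. *Bnip3*, which directs mitochondria to breakdown, gave 0.83 and 1.30. *Vegfa*, the growth factor of blood vessels, gave 0.62 in wt and -0.04 in ko.

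Glycolysis genes were also higher, by a smaller size. The 17 measured all lay above 0 in wt (median 0.37), with 1 past 2-fold, and 14 of 15 did in ko (median 0.41), with 2 past 2-fold. *Gapdh* was at 38.4 in wt members against 25.5 in the *Olfm4*-rich cells, and at 38.9 against 23.7 in ko. *Aldoa*, the aldolase that splits the hexose, gave log2 ratios of 0.46 and 0.41. *Hk1*, a hexokinase, gave 1.16 (0.71 to 1.62) in wt, and in ko it had too few UMIs to be counted, with 29 in members. *Hk2*, its relative, gave 0.60 in wt and -0.55 in ko. The respiratory chain list gave medians of 0.04 in wt and -0.12 in ko. Glycolysis was not highest in members. In wt its sum was 156 per 10000 in members, 119 in the *Olfm4*-rich cells and 148 in all other cells of at least 5000 UMIs. It was 191 in the wt cells that only lacked an *Lgr5* UMI and 188 in those kept out by *Cdkn1a* alone. In ko, against all other cells of at least 5000 UMIs, the genes' lower bounds had a median of -0.23 and their upper bounds of -0.01. Across single members the summed hypoxia targets and the summed glycolysis genes had a Spearman correlation of 0.63 over 382 wt cells and of 0.78 over 62 ko cells. The cells of a library share its capture and sequencing, and both sums are shares of the same cell total. In wt members the hypoxia sum ranged from 1.54 through a median of 21.8 to 98.5 per 10000, and in ko from 3.83 through a median of 13.0 to 104.

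**Figure D3:**
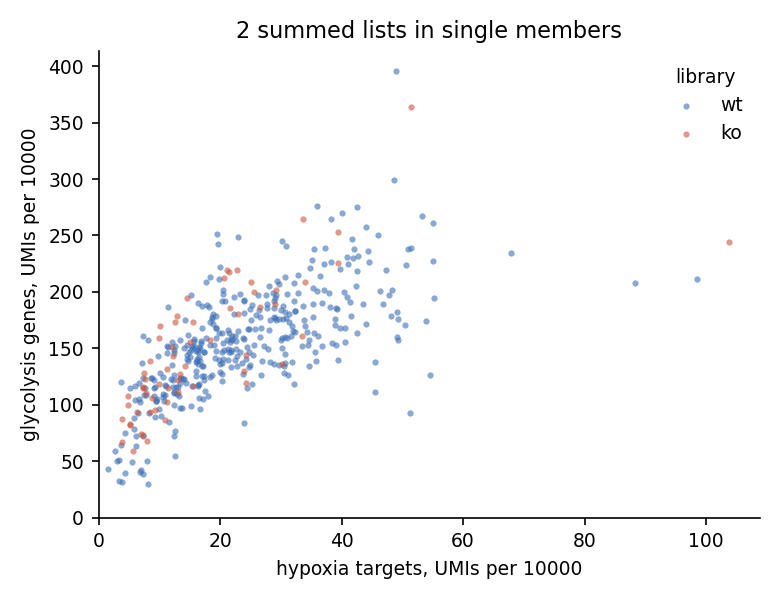
Summed UMIs of 15 hypoxia targets (horizontal) and of 17 glycolysis genes (vertical) per 10000 UMIs of the cell, 1 point for each member of the wt and ko libraries. The sums rise together in both libraries, with Spearman correlations of 0.63 in wt and 0.78 in ko. The median hypoxia sum was 21.8 in wt and 13.0 in ko, and the highest ko member reached 104.

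Markers of the crypt base were lower in members than in the *Olfm4*-rich cells of ko, and in wt their median was close to that of all genes. In wt the 13 counted gave a median of -0.09, with *Cdca7* and *Igfbp4* past 2-fold lower. In ko the median of 12 was -0.89, and 6 were past 2-fold lower, *Cdca7*, *Igfbp4*, *Lrig1*, *Mex3a*, *Rgmb* and *Smoc2*. *Smoc2*, a secreted matrix protein, was at 1.28 in wt members against 2.14, and at 1.69 in ko members against 3.59. *Rgmb*, a co-receptor of BMP signalling, gave -0.85 (-1.00 to -0.70) in wt and -1.59 (-1.97 to -1.22) in ko. *Lrig1*, which restrains growth factor receptors, gave -0.09 (-0.33 to 0.16) and -1.00 (-1.41 to -0.60). The Wnt list, in which *Axin2* and *Sox9* report the pathway's activity, had medians of -0.40 over 13 genes and -0.51 over 10. *Axin2* gave -0.71 and -0.70, and *Sox9* -0.49 and -0.83. Replication genes that the rule did not use were also lower, with medians of -0.42 and -0.50. The rule limits their relatives in both populations.

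By list median, genes of absorptive cells were higher in members than in the *Olfm4*-rich cells, from a low level. In wt the summed enterocyte list stood at 5.89 per 10000 against 3.47, but the median cell at 3.76 against 3.25. The enterocyte list had a median of 0.93 over 9 genes in wt and 1.34 over 8 in ko. *Sis*, the sucrase of the brush border, was at 1.46 against 0.812 in wt, a log2 ratio of 0.85 (0.71 to 0.99), and at 1.94 against 0.213 in ko, a ratio of 3.18 (2.66 to 3.76). In ko, 3 members held 68.5% of these UMIs, and without the 3 highest cells of each population *Sis* stood at 0.647 against 0.145, a log2 ratio of 2.16 (1.47 to 2.92). The median of the enterocyte list was then 0.90 in wt, with 6 of 9 genes above 0, and 1.11 in ko, with 7 of 8. All other cells of at least 5000 UMIs held 3.62 and 9.43. *Fabp1*, a fatty acid carrier, gave 2.96 in wt, where 75.6% of its UMIs lay in 3 members, gave 1.12 (0.71 to 1.53) without the 3 highest cells of each population, and was not counted in ko. Of the list of regenerative and fetal-like genes, the same 4 were past 2-fold higher in both libraries, *Areg*, *Ly6a*, *S100a6* and *Anxa1*. Without the 3 highest cells of each population, 4 of 5 genes counted were past 2-fold higher in wt and 3 of 4 in ko. The summed list was at 3.06 per 10000 in wt members, 0.899 in the *Olfm4*-rich cells and 3.03 in all other cells of at least 5000 UMIs. It was at 4.09 in the wt cells that only lacked an *Lgr5* UMI and at 11.1 in those kept out by *Cdkn1a* alone. *Areg*, a ligand of the EGF receptor, was at 1.62 against 0.331 in wt and at 3.00 against 1.31 in ko, where 3 members held 53.6% of its UMIs. Without the 3 highest cells of each population its ko ratio was 0.72 (0.41 to 1.04), no longer past 2-fold, and its wt ratio 2.37 (2.17 to 2.57). *Ly6a*, a surface protein of regenerating crypts, was at 0.0526 against 0.0135, and at 0.728 against 0.0964. In ko, 3 members held 55.5% of its UMIs, 71.8% of the UMIs of *S100a6*, a calcium-binding protein, and 80.6% of those of *Anxa1*, which binds membrane lipids. Without the 3 highest cells, *Anxa1* gave 1.36 (-0.11 to 3.14) in ko, and *Ly6a* and *S100a6* had 1 UMI each left in the *Olfm4*-rich ko cells, against 69 and 50 in members.

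The stress response genes differed between the libraries in this contrast. In wt, 20 of 21 lay above 0 with a median of 0.64, and 6 were past 2-fold higher. In ko, 4 of 13 lay above 0, with a median of -0.17, and 1 was past 2-fold higher (*Vldlr*) and 1 lower (*Pck2*). The 8 genes not counted in ko, with under 50 UMIs, include *Trib3*, *Chac1*, *Slc7a11* and *Ddit3*. *Ddit3* gave 1.35 (1.09 to 1.62) in wt and had 20 UMIs in ko members. *Nupr1* gave 1.34 (1.29 to 1.38) and 0.11 (-0.05 to 0.26). Both libraries gave members a higher level of *Cdkn1a*, 1.25 and 0.49, a gene that the rule limits in both populations. These differences between libraries were not tested.

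**Figure D4:**
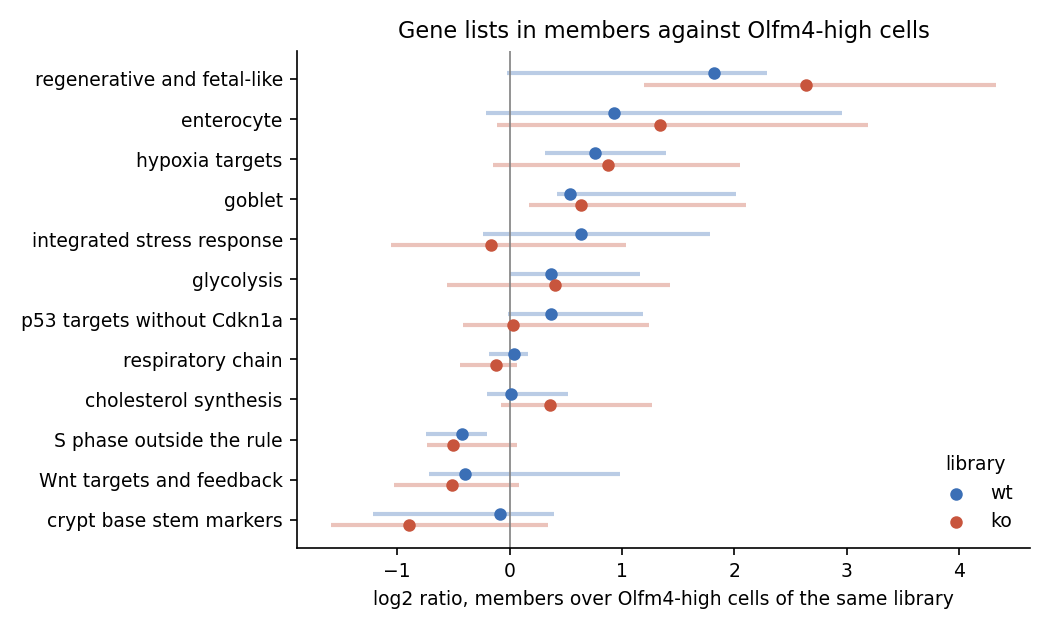
Median log2 ratio of each gene list in members over Olfm4-rich cells of the same library, with wt and ko as separate points. The pale lines span the lowest to the highest gene of the list. Hypoxia targets lie above 0 in both libraries (0.76 and 0.88), and the integrated stress response lies at 0.64 in wt and -0.17 in ko.

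Cells that passed every other gate but held no *Lgr5* UMI were fewer, 105 in wt and 29 in ko, and shallower, with a median of 15609 and 20040 UMIs, and they may hold *Lgr5* below detection. In both libraries, 94 of 5314 genes were past 2-fold higher in members (1.77%) and 115 lower (2.16%). Crypt base markers had medians of 0.91 in wt and 0.99 in ko, and Wnt targets of 1.08 and 1.09. *Smoc2* gave 1.44 and 0.77, *Aqp4*, a water channel, 1.72 and 3.40, and *Ccnd1*, the cyclin of early G1, 1.98 and 1.09. All 12 enterocyte genes counted in wt and all 13 in ko were past 2-fold lower in members, against 3.63% and 4.01% of all genes counted in that contrast, with medians of -2.74 and -1.92. *Sis* was at 10.1 per 10000 in the wt and 7.01 in the ko cells without *Lgr5*, against 1.46 and 1.94 in members. Hypoxia targets were close, with medians of -0.23 and -0.27. The ko value of *Sis* in members was 0.647 without the 3 members that held most of its UMIs. By list medians the members stood between the *Olfm4*-rich cells and the cells without *Lgr5* in enterocyte genes in both libraries, and in crypt base markers in ko.

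The 59 wt and 126 ko cells that only *Cdkn1a* kept out were compared in the same way, with 8 of 7434 genes past 2-fold higher in members of both libraries (0.108%) and 31 lower (0.417%). *Areg* was lower in members, with log2 ratios of -1.37 and -1.26. The p53 targets other than *Cdkn1a* had medians of -0.45 in wt and -0.57 in ko. *Cdkn1a*, which chose these cells, is itself a p53 target.

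Between the libraries, members of ko were higher than those of wt in p53 targets and keratins and lower in genes of the integrated stress response. Of 6622 genes with at least 100 UMIs, 165 were past 2-fold higher in ko (2.49%) and 121 lower (1.83%). The median log2 ratio over these genes was 0.16, and scaling by the median of ratios, which removes it, gave 99 higher and 166 lower. Among cells with under 5000 genes in both libraries, 164 were higher and 307 lower.

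Among p53 targets, *Cdkn1a* left out, 14 of 15 lay above 0 with a median of 0.88, and 7 were past 2-fold higher. *Bax*, which opens the mitochondrial membrane in cell death, ranged from 0 through a median of 1.42 to 7.58 per 10000 in wt members and from 0.776 through a median of 3.80 to 9.82 in ko members. The ko median lay above the upper quartile of wt, and the log2 ratio was 1.32 (1.20 to 1.45). *Ccng1*, a cyclin that acts on *Mdm2*, ranged from 0 through a median of 0.489 to 4.87 in wt and from 0 through a median of 2.64 to 7.86 in ko, with a log2 ratio of 2.01 (1.83 to 2.19). *Trp53inp1*, a p53 cofactor induced by stress, was found in 8.38% of wt and 54.8% of the more deeply sequenced ko members, with a log2 ratio of 2.92 (2.32 to 3.54). *Mdm2*, which targets p53 for breakdown, gave 0.88 (0.45 to 1.31), and *Pmaip1*, a cell death gene, -0.01 (-0.57 to 0.51). The list had medians of 1.42 in the *Olfm4*-rich cells, 1.07 in the *Cdkn1a*-rich cells and 1.17 in all other cells of at least 5000 UMIs. The rule held *Cdkn1a* under the same limit in both libraries, and within it the level was 0.858 in wt and 1.56 in ko. Without the gate the median of the list was 1.43.

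Of the integrated stress response, 10 of 17 genes were past 2-fold lower in ko and none lay above 0, with a median of -1.21. *Atf4*, its central factor, ranged from 0 through a median of 1.36 to 10.7 per 10000 in wt members and from 0 through a median of 0.572 to 2.52 in ko members. The libraries overlapped, with the highest ko cell well below the highest wt cell, and the log2 ratio was -1.20 (-1.45 to -0.95). Its partners *Atf5* and *Ddit3* gave -2.51 (-3.10 to -1.98) and -2.42 (-3.15 to -1.77), and *Trib3*, which feeds back on *Atf4*, -2.75 (-4.22 to -1.59) on 140 and 6 UMIs. Among the enzymes, *Asns*, which makes asparagine, was at 1.64 in wt and 0.629 in ko, a log2 ratio of -1.38 (-1.65 to -1.13). *Psat1* of serine synthesis gave -1.84 (-2.34 to -1.36), whereas *Phgdh*, the first enzyme of that pathway, gave -0.86 (-1.05 to -0.69). *Mthfd2*, of mitochondrial folate metabolism, gave -2.02 (-2.49 to -1.58), and *Stc2*, a secreted glycoprotein, -2.01 (-2.45 to -1.60). *Ddit4*, which inhibits mTORC1, and *Cebpb*, a transcription factor, were near 0, at -0.21 (-0.41 to -0.01) and -0.13 (-0.45 to 0.19).

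The same list was at -0.82 in all other cells of at least 5000 UMIs, at -0.47 in the *Olfm4*-rich and at -1.23 in the *Cdkn1a*-rich cells. *Ddit3* was at -1.03 in the other cells and -0.45 in the *Olfm4*-rich cells, and *Nupr1* at -1.26 and -0.71. Within the wt library, *Nupr1* and the summed list had a Spearman correlation of 0.35 over 382 members, and within ko of -0.34 over 62. Without the 3 members of each library that held most UMIs of a gene, *Atf4* stood at -1.34, *Asns* at -1.55 and *Stc2* at -2.28.

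**Figure D5:**
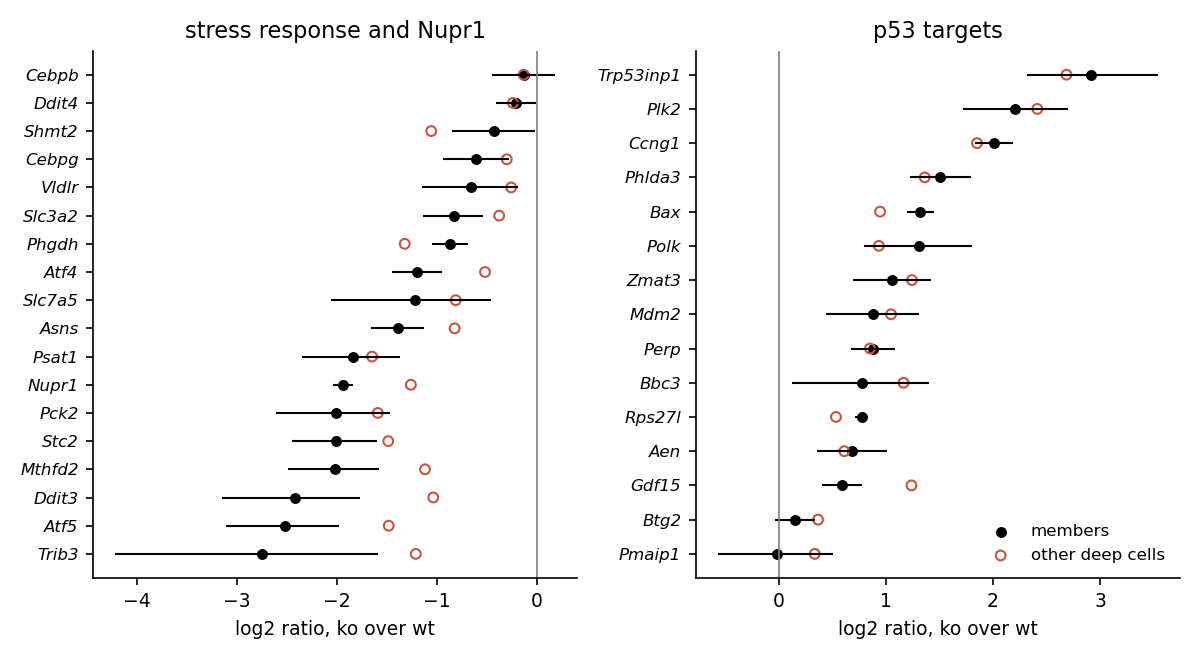
Log2 ratio of ko over wt for the genes counted of the integrated stress response with Nupr1 (left) and of the p53 targets other than Cdkn1a (right). Filled points are members with their 95% counting intervals, and open points are all other cells with at least 5000 UMIs. The stress response genes lie below 0 in members, from -2.75 for Trib3 to -0.13 for Cebpb, and the p53 targets run from -0.01 for Pmaip1 to 2.92 for Trp53inp1.

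*Atf4* and its partners bind a composite element whose letters include TGATGNAA. The 250 bases before the gene start were searched on both strands, the other strand reading TTNCATCA, in RefSeq promoters of GRCm38.p6, and 6 of the 20 matched genes among the stress list and *Nupr1* held it (30%), against 1056 of 27025 genes in all (3.91%) and 118 of 5256 of the genes counted here (2.25%). None of 16 p53 targets, 12 hypoxia targets and 17 glycolysis genes did. At a share of 2.25%, a list of such a size would likely hold no match, so these lists give no contrast. A match is a description of the letters and not a bound site. The stretches of all 6 genes are shown. *Trib3*, *Atf5*, *Ddit3*, *Mthfd2*, *Stc2* and *Psat1*, whose ratios between the libraries are given above, had no match in this window. The motif is in capitals, and each stretch reads 5′ to 3′ on the strand of its gene.
Nupr1, chr7:126625553-126625600, minus strand: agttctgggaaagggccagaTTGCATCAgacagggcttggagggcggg
Asns, chr6:7693210-7693252, minus strand: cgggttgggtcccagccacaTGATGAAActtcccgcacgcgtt
Chac1, chr2:119351029-119351076, plus strand: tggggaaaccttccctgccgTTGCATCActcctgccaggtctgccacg
Pck2, chr14:55540143-55540190, plus strand: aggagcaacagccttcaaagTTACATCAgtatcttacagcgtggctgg
Slc7a11, chr3:50443633-50443680, minus strand: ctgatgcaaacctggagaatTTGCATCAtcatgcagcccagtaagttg
Slc7a11, chr3:50443652-50443699, minus strand: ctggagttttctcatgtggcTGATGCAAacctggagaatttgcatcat
Vldlr, chr19:27216800-27216847, plus strand: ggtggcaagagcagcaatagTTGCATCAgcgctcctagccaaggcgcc
In *Nupr1*, *Chac1*, *Pck2* and *Vldlr* the motif lies on the other strand, in *Asns* it lies as written, and *Slc7a11* holds 1 of each kind. *Pck2*, which feeds the synthesis of glucose from mitochondria, was at 0.548 in wt and 0.136 in ko members, a log2 ratio of -2.01 (-2.61 to -1.46). *Vldlr*, a lipoprotein receptor, gave -0.65 (-1.14 to -0.19). *Chac1*, which breaks down glutathione, had 89 and 2 UMIs, and *Slc7a11*, a cystine carrier, 53 and 6, both under the 100 UMIs required for a count.

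Immediate early genes were mostly lower in ko, with 4 of 10 past 2-fold and a median of -0.67. *Fos* gave -1.15 (-1.47 to -0.85) and *Jun* -1.21 (-1.45 to -0.98), partners in the AP-1 factor, and *Fosb* had 192 UMIs in wt and 2 in ko. *Ier3* gave 0.83 (0.62 to 1.04). In all other cells of at least 5000 UMIs *Fos* was at -0.20 and the list at 0.08. Hypoxia targets had a median of -0.41 in members with none past 2-fold, and of -0.78 without the 3 highest members of each library for each gene, against 0.20 in those other cells. By the levels given above, *Ndrg1* was lower in ko in members and in the *Olfm4*-rich cells, and *Egln3* only in the *Olfm4*-rich cells. For these genes a lower level in ko was thus not particular to members.

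The keratins of simple epithelium were higher in ko. *Krt8* ranged from 0.924 through a median of 9.49 to 44.3 per 10000 in wt members and from 2.26 through a median of 20.1 to 71.1 in ko members, a log2 ratio of 1.27 (1.22 to 1.32), and *Krt19* gave 1.33 (1.27 to 1.39). The ratios in all other cells were 1.15 and 1.39. *Epcam*, the adhesion protein of all epithelial cells, was at 12.0 and 12.0. Of the Wnt list, 2 of 10 were past 2-fold higher and 1 lower. *Ccnd1* was found in 49.2% of wt and 90.3% of the more deeply sequenced ko members, with a log2 ratio of 1.98 (1.78 to 2.18). *Cd44*, a receptor of hyaluronan, gave 2.00 (1.57 to 2.44). *Ascl2*, the transcription factor that keeps stem cells in that state, was at 0.512 in wt and 0.244 in ko, a log2 ratio of -1.07 (-1.51 to -0.65). *Axin2* gave 0.64 (0.39 to 0.88). Of 11 crypt base markers, *Aqp4* alone was past 2-fold, at -1.87 (-2.26 to -1.50), and the median was -0.03. *Smoc2* gave 0.41 (0.23 to 0.58) and *Rgmb* -0.72 (-1.06 to -0.40).

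Of the other subunits of TFIID, 10 were counted, with a median of 0.35, and *Taf13* was past 2-fold at 1.35 (1.03 to 1.67). The PRC2 list, the Polycomb complex that methylates histone H3, had a median of 0.08 over 9 genes with none past 2-fold. The respiratory chain stood at 0.06 and cholesterol synthesis at -0.01, below the median of 0.16 over all genes.

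The genes with the largest ratios were few and, for some, rested on a handful of cells. Highest in ko was *Ly6d* at 5.64 (4.84 to 6.58), but 3 cells held 98.9% of its ko UMIs. Without the 3 highest members of each library it stood at 0.04. The same held for *Spink1*, a trypsin inhibitor (89.5%, 0.33 without them), and for *Anxa1* (80.6%, 0.56 without them). The hormone *Gcg* had 79.0% of its ko UMIs in 3 cells, the hormone *Cck* 93.7%, and *Neurog3*, the factor of endocrine precursors, all 131 of its ko UMIs in 2 cells. Spread over more cells were *Ly6a* at 3.79 (3.27 to 4.33), found in 5.24% of wt and 32.3% of the more deeply sequenced ko members, and *Ptp4a3*, a phosphatase, at 3.13 (2.69 to 3.60). *Tstd1* gave 3.44 (2.87 to 4.04) and *Sft2d1* 3.04 (2.46 to 3.64). Without the 3 highest members these stood at 3.39, 3.08, 3.37 and 3.05. *Eif3j2*, at 2.70 (2.23 to 3.18), has a near-identical copy, *Eif3j1*, so that its count is uncertain.

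Lowest in ko was *Gm10260*, a predicted gene, with 5288 UMIs in wt and 1 in ko members, a log2 ratio of -10.57 (-15.87 to -8.09). *Bex1*, for a small adaptor protein, ranged from 0 through a median of 4.13 to 21.5 per 10000 in wt members and had no UMI in ko, so that it was at least 337-fold lower, with 3 counts over the ko members as the floor. *Dkk2*, a Wnt inhibitor, was at least 17.1-fold and *Pla2g1b*, a phospholipase, at least 12.7-fold lower by the same floor. *Spp2*, a secreted phosphoprotein, had 860 and 7 UMIs (-5.14 (-6.46 to -4.09)), and H2-T3, a class I antigen, 300 and 1. In all other cells of at least 5000 UMIs the log2 ratios were -10.44 for *Gm10260*, -7.15 for *Bex1*, -2.44 for *Spp2* and -3.87 for H2-T3.

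Among themselves the members varied in genes of other fates, in metallothioneins and in *Nupr1*. At 5000 UMIs per cell, the ratio of variance to mean over cells had a median of 1.07 over 2542 genes in wt and of 1.08 over 2758 in ko. In wt it was 64.5 for *Itln1*, an intelectin of Paneth and goblet cells found in 14.1% of thinned members, 18.3 for *Fabp1* and 13.2 for *Lyz1*, the lysozyme of Paneth cells. *Mt1*, a metallothionein, was found in nearly every cell and gave 22.4 in wt and 49.9 in ko. *Nupr1* had rank 4 in wt, at 13.7. In ko, *Cck* led at 60.0, followed by *Mt1*, *Gcg* and *Neurog3*. Markers of cells outside the epithelium were rare. The markers of such cells that were listed, 9 in wt and 10 in ko, summed to 0.0189 (0.0103 to 0.0317) per 10000 in wt and 0.0235 (0.00762 to 0.0548) in ko members, with a highest cell of 0.830 and 0.565. *Dclk1* and *Trpm5*, which define tuft cells, were at 0 in both. The 9 Paneth markers reached 222 in 1 wt member against a median of 1.27, and the 15 enteroendocrine markers listed in ko 201 in 1 ko member against a median of 0. The part of these cells in the results was not tested beyond the values without the 3 highest members.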

How the data were processed

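Sorted live enteroid cells of 1 wt and 1 ko library had been captured on the 10x Chromium platform. The authors aligned the reads to mm10 and counted UMIs per gene and cell, and the deposited counts are whole numbers without normalization, with 15182 genes listed in both libraries. The submitters' processing notes name bcl2fastq 2.17.1.14, Cell Ranger 3.1 and Seurat 3.1.4; the annotation is not given in the sources used here. The 2563 and 1811 cells held 269 to 5997 genes and at most 15.0% mitochondrial UMIs, within the limits that the study set on cells. The wt cells ended at 4999 genes, below the study's upper limit.

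Counts were summed over the cells of a population in each library and given per 10000 UMIs, with exact Poisson intervals. Log2 ratios had exact conditional binomial intervals, shares of cells Clopper-Pearson intervals, and their difference Newcombe's interval, all at 95% and for counting error only. A gene was counted with at least 100 UMIs over both libraries' members, or 50 over both populations within a library, and called past a fold of 2. A count of 0 was bounded by 3 counts. With 1 library per group no test was made. The steps were tested on simulated counts. Python 3.11.15 with numpy 2.4.6, scipy 1.17.1, pandas 2.3.3 and Scrublet in scanpy 1.11.5 were used. Scrublet called 10 wt cells (0.390%), 3 of them members, and no ko cell, a share too low to show that it worked, and all cells were kept in the values reported.

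The members, the 31 gene lists and the alternatives were chosen with earlier results of these data known, and no list is independent support. Named were *Taf4*, the genes of the rule, the 4 marker genes, those of the lists, and, among members, the 10 genes at either end of the ratio of ko to wt and of the ratio to the other cells of at least 5000 UMIs. The genes *Mt1*, and *Eif3j1* as a copy of *Eif3j2*, and those named for their spread among cells were chosen after their values were seen. Gene positions and promoters are RefSeq's for GRCm38.p6, the build of mm10. The alternatives were 11 planned and 2 added after seeing the data, which keep cells with under 5000 genes in both libraries and leave out the 3 cells of each population that held most UMIs of a gene.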

Additional observations from a re-analysis of the deposited data

How the results depend on the processing

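The share, the counts, the list medians and the marker values were recomputed under 13 alternatives, 2 of them (only cells with under 5000 genes, and list medians without the 3 highest cells of a gene) chosen after seeing the data. Of the recomputed values of the main comparisons, 289 moved by less than their counting error or, for counts, by under 1.5 times. For a list median, the bounds used were the medians of its genes' lower and upper bounds, which are not an interval of the median itself. Another 33 moved further. List medians whose bounds held 0 changed sign under some alternatives, also among the 289 values that stayed within counting error. Crypt base markers kept their sign in 7 of 13 alternatives between the libraries (-0.19 to 0.24), and in 11 of 12 for ko members over other deep cells. Glycolysis kept it in 12 of 13 between the libraries, and Wnt targets in 8 of 12 for wt members over other deep cells. Among the values of single genes, 134 stayed within counting error, 43 moved further and 3 changed sign although their main interval excluded 0. These were *Slc12a2* between the libraries under 1 alternative and *Nupr1* over the other deep cells in ko under 2. Of the main comparisons, only 1 value changed sign although its main interval excluded 0. It was the share, which was 2.62 points higher in ko without the *Cdkn1a* gate. Without that gate there were also 325 genes past 2-fold higher in ko and 239 lower, 3 genes higher in members than in the other deep cells of both libraries, and medians of 1.43 (p53 targets), -0.16 (hypoxia) and -0.31 (immediate early genes) between the libraries, and 0.083 (Wnt, ko members over the other deep cells). With the rule on thinned cells the share difference was -4.41, the stress response -0.93 between the libraries and 0.39 over *Olfm4*-rich cells in wt, crypt base markers 0.65 over other deep cells in ko, enterocyte genes 0.80 over *Olfm4*-rich cells in ko, 2 genes were higher in members of both libraries, *Slc12a2* turned to 0.000123 between the libraries, and *Nupr1* to -0.13 over the other deep cells in ko. With at least 2 *Lgr5* UMIs the enterocyte medians over *Olfm4*-rich cells were 0.62 in wt and 0.83 in ko. Leaving mitochondrial and ribosomal genes out of the total gave 3 genes higher in members and -0.27 for glycolysis between the libraries, and the median of ratios gave 99 genes higher in ko, and -0.31 and, over *Olfm4*-rich cells in ko, 0.54 for glycolysis. Thinned members gave 51 genes higher in ko and 64 lower, 199 lower in members of both libraries, and -0.23 for hypoxia. A minimum of 30 UMIs gave 452 higher and 363 lower in ko, and 3 higher in members, and a minimum of 1 UMI 1316, 668 and 97. Cells with under 5000 genes gave 307 lower in ko, 0 genes higher in members, and -0.56 for *Nupr1* over the other deep cells in ko. Without the 3 cells of each population that held most UMIs of a gene, hypoxia targets stood at -0.78 between the libraries. The change with the *Cdkn1a* gate follows from the cells it readmits, and fewer genes are counted in thinned cells. The cause was not tested for the others.

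With 1 library per group, no interval here covers the spread between cultures. A gene needs about 100 UMIs over the members to be counted, so genes of low level are not described. The 62 ko members are few, and 3 cells can carry most UMIs of a gene.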
